A study of Mus musculus with 8 samples.

Results

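Open chromatin was compared between mTEC-I and mTEC-III, which are 2 of 4 populations of medullary thymic epithelial cells (mTEC) sorted from enzyme-digested thymus of C57BL/6 mice. The assay was ATAC-seq: a transposase inserts sequencing adapters where chromatin is open, so that reads pile up at accessible sites. mTEC-I was sorted as CD45-Epcam+MHCIIlowItgb4+ and mTEC-III as CD45-Epcam+Ly6D+, and the sort of mTEC-III names no MHCII or Itgb4 gate. Each population had 2 libraries, so the values compared are those of 4 of the study's 8 libraries. The comparison covered all 74090 merged peaks of the deposited table and sums of those peaks per gene. The filter on low values and the spread behind the p-values used all 8 libraries. No treatment, genotype or age is named for either group, and the labels do not say whether the replicates came from separate or pooled animals. The p-values reflect how far the 2 libraries of a group differ, pooled over the 4 populations, a spread that may be technical. The study asked how accessible chromatin differs between mTEC populations that single-cell transcript data had separated.

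Medullary thymic epithelial cells present self antigens of other tissues to developing T cells, and the transcriptional regulator Aire is needed for much of that display. Immature mTEC carry keratins and integrins of basal epithelium and attract thymocytes with chemokines, whereas mature mTEC carry high MHC class II and Aire, and some go on to a late stage with genes of cornifying skin. Open chromatin marks promoters and distal elements that factors can reach. It does not measure transcripts, and in sorted bulk cells fewer cells with an open site cannot be told apart from less signal per cell.

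The sequences below are 6 promoter windows that hold a peak called different between the populations, with 3 called higher in mTEC-I and then 3 called lower, and the mature microRNA whose locus held several peaks higher in mTEC-I. All were taken from RefSeq tables of the GRCm38.p6 assembly, run 5′ to 3′, and cover 250 bases before to 50 after an annotated start site, whereas the peaks lie in mm9 and RefSeq start sites may differ from those of the deposited annotation. Krt5, a keratin of basal epithelial cells, lies at chr15:101712856-101713155, minus strand. Slc46a2, a transporter first known from thymic stroma, lies at chr4:59915007-59915306, minus strand. Wtip, a LIM-domain protein, lies at chr7:34133219-34133518, minus strand. Akr1c12 and Akr1c13, neighbouring aldo-keto reductases, lie at chr13:4279350-4279649, minus strand and chr13:4190937-4191236, plus strand, and 284 of 296 aligned bases of their windows (95.9%) are identical, so their reads may be shared. Krt23, a type I keratin, lies at chr11:99493071-99493370, minus strand. Capitals mark matches to searched motifs with at least 7 letters other than N. These are TEAD (CATTCCA) in Wtip, FOX (TGTTTAC) in both Akr1c windows and the NF-kB motif in Krt23. Matches to searched motifs with fewer such letters, those of AP-1, KLF and SP factors, the wider NF-kB motif and the E-box, stay in lower case. In the mature arms of miR-205, a microRNA of stratified epithelium, capitals mark the seed, bases 2 to 8. The arms lie at chr1:193507503-193507524 and chr1:193507467-193507488 on the minus strand.
Krt5: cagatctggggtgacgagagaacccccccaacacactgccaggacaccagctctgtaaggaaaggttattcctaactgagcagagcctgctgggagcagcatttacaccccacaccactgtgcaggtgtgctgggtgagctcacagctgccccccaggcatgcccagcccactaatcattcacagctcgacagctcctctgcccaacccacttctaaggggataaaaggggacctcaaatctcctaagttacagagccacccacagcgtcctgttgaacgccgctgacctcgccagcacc
Slc46a2: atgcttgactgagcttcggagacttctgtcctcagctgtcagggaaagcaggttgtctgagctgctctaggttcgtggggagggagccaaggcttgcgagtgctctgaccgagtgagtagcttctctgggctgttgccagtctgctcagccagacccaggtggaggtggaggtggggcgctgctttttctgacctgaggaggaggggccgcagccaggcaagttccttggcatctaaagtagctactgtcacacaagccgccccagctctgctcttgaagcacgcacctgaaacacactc
Wtip: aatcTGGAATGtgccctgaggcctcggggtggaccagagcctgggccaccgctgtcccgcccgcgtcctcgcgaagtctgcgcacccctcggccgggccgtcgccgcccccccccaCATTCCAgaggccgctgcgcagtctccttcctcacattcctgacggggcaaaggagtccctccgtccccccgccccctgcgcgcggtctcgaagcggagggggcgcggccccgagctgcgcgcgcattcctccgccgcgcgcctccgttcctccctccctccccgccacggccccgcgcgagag
Akr1c12: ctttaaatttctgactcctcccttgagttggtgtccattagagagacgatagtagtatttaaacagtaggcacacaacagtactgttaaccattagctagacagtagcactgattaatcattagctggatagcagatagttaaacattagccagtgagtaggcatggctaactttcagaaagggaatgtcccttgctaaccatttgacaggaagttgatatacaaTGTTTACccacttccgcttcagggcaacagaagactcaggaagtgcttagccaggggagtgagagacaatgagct
Akr1c13: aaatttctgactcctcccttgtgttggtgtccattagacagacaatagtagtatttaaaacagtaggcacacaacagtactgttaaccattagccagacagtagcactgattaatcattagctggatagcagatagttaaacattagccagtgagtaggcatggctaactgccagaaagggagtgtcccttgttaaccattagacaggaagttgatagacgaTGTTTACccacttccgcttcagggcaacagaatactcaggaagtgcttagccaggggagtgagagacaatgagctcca
Krt23: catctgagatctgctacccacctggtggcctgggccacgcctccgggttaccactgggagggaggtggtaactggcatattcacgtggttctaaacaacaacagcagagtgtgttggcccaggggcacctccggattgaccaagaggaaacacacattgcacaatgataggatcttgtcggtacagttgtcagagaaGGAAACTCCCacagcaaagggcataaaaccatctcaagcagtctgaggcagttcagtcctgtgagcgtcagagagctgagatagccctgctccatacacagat
mmu-miR-205-5p: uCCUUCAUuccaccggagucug
mmu-miR-205-3p: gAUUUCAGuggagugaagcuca

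The mTEC-I libraries held 8574918 and 7033324.5 total tags, and the mTEC-III libraries 5131245 and 6537908. The share of tags inside merged peaks was 19.7% and 19.7% in mTEC-I, against 8.44% and 11.003% in mTEC-III. With the authors' scaling to total tags this difference moved the median log2 difference of mTEC-I minus mTEC-III. Over features tested under both scalings, that median was 0.89 for peaks and 0.99 for genes. TMM scaling was used here and assumes that most peaks do not differ. It set the medians over all features tested with it at -0.04 for peaks and 0.01 for genes. Values are therefore given as normalized tags, the deposited tags per 10000000 after TMM scaling, and every difference is relative to the bulk of features. After scaling, 1 read end in a merged peak was worth 0.442 and 0.542 normalized tags in mTEC-I, against 1.67 and 1.02 in mTEC-III, so low values were measured more coarsely in mTEC-III.

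**Figure D1:**
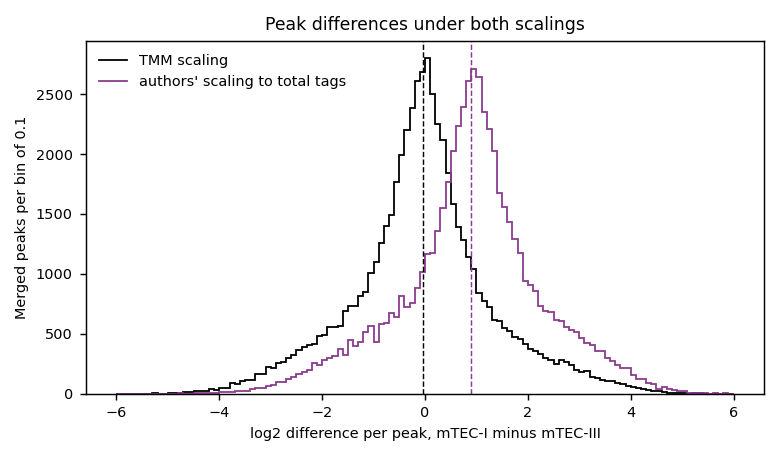
Number of merged peaks (vertical axis, bins of 0.1) by log2 difference of mTEC-I minus mTEC-III (horizontal axis). TMM scaling is in black over its 58817 tested peaks, and the authors' scaling to total tags in purple over its 59943. Dashed lines are medians, in black at -0.04 over the peaks tested with TMM. The purple line, at 0.89, covers only peaks tested under both scalings, and the median of the whole purple curve is 0.93.

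With limma over all 8 libraries and a Benjamini-Hochberg adjusted p under 0.05 as the call, 6211 of 58817 tested peaks (10.6%) were called higher in mTEC-I and 7298 (12.4%) lower. The called peaks differed widely, with a median log2 difference of 2.31 among the higher and -2.23 among the lower. Summed over the merged peaks annotated to a gene within 10 kb of its transcription start site (TSS), 1311 of 15008 tested genes (8.74%) were called higher and 1237 (8.24%) lower, with medians of 1.13 and -1.11. These gene values describe accessibility near the TSS, not expression. All of these called genes had both mTEC-I values on 1 side of both mTEC-III values, an arrangement also seen above in 29.4% and below in 29.6% of all tested genes, and in 29.7% and 32.5% of all tested peaks. The edgeR quasi-likelihood test on recovered read ends called 1380 genes (9.01%) higher and 1430 (9.33%) lower, and 8208 peaks (12.6%) higher and 8737 (13.4%) lower. Under the authors' scaling, which raises all genes in mTEC-I, all 1311 higher genes stayed positive, whereas 687 of the 1237 lower genes stayed negative and 286 were still called lower. Where a gene given below as called turned sign under that scaling, its value is given. With 1 library left out and the same features tested, the counts of genes and peaks fell most without an mTEC-I library. Such a fit leaves 1 library in a group, which then adds nothing to the spread that the groups share. The drop therefore cannot show which libraries the calls rest on. Calls given below as lost without a library carry the same limit.

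The genes that define the sorts differed little in accessibility. Itgb4, the integrin subunit that gates mTEC-I, had 95.8 and 76.5 normalized tags in mTEC-I, against 75.3 and 51.6 in mTEC-III (log2 difference 0.45 ± 0.24 SE, adjusted p = 0.209). Ly6d, the surface protein that gates mTEC-III, had 44.7 and 57.7 normalized tags in mTEC-I, against 57.4 and 69.1 in mTEC-III (log2 difference -0.30 ± 0.27 SE, adjusted p = 0.476), and its direction turned with the authors' scaling (log2 difference 0.69). Neither gene passed the test, and the Ly6d ranges overlapped. H2-Aa, an MHC class II chain, had 248 and 246 normalized tags in mTEC-I, against 333 and 265 in mTEC-III (adjusted p = 0.174). Epcam, the pan-epithelial surface protein, had 145 and 137 normalized tags in mTEC-I, against 133 and 159 in mTEC-III (adjusted p = 0.882). The L1cam values were close to the floor, with 2.74 and 1.66 in mTEC-I and 3.59 and 3.09 in mTEC-III. No merged peak lay within 10 kb of the TSS of Ptprc, which encodes CD45, or of Ccl21a. H2-Ab1, the partner chain of H2-Aa, was called lower in mTEC-I, with 245 and 222 normalized tags in mTEC-I, against 355 and 272 in mTEC-III (log2 difference -0.41 ± 0.14 SE, adjusted p = 0.0414), but had a log2 difference of 0.60 with the authors' scaling. The call of H2-Ab1 was lost without mTEC-I replicate 1 (adjusted p = 0.110), mTEC-I replicate 2 (0.282) and mTEC-III replicate 1 (0.340).

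Of the genes listed as mTEC-I markers, Krt5 and Pdpn were called higher and Itgb4 and Krt14 were not called. Krt5 had 104 and 107 normalized tags in mTEC-I, against 23.3 and 20.6 in mTEC-III (log2 difference 2.22 ± 0.33 SE, adjusted p = 0.000117), and the populations did not overlap. Pdpn, the basal glycoprotein podoplanin, had 45.6 and 41.02 normalized tags in mTEC-I, against 14.3 and 12.4 in mTEC-III (log2 difference 1.63 ± 0.46 SE, adjusted p = 0.0181). Of the mTEC-III markers, Ly6d, Krt10 and Krt1 were not called and Ivl had no tested peak. Krt10, a keratin of suprabasal skin, had 31.5 and 32.7 normalized tags in mTEC-I, against 37.7 and 37.1 in mTEC-III (adjusted p = 0.653). Krt1, its partner in skin, had 25.6 and 29.4 normalized tags in mTEC-I, against 32.2 and 29.9 in mTEC-III (adjusted p = 0.745). Spink5, a protease inhibitor of cornifying skin, was higher in mTEC-I, with 37.4 and 48.8 normalized tags in mTEC-I, against 7.17 and 17.5 in mTEC-III (log2 difference 1.83 ± 0.59 SE, adjusted p = 0.0355). Thus 2 markers of mTEC-I went with its label, and no listed marker of mTEC-III was called higher in mTEC-III. The calls of Pdpn (adjusted p = 0.162) and Spink5 (0.144) were lost without mTEC-I replicate 1. Those of Pdpn (0.134) and Spink5 (0.267) were lost without mTEC-I replicate 2. That of Spink5 (0.222) was lost without mTEC-III replicate 1.

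**Figure D2:**
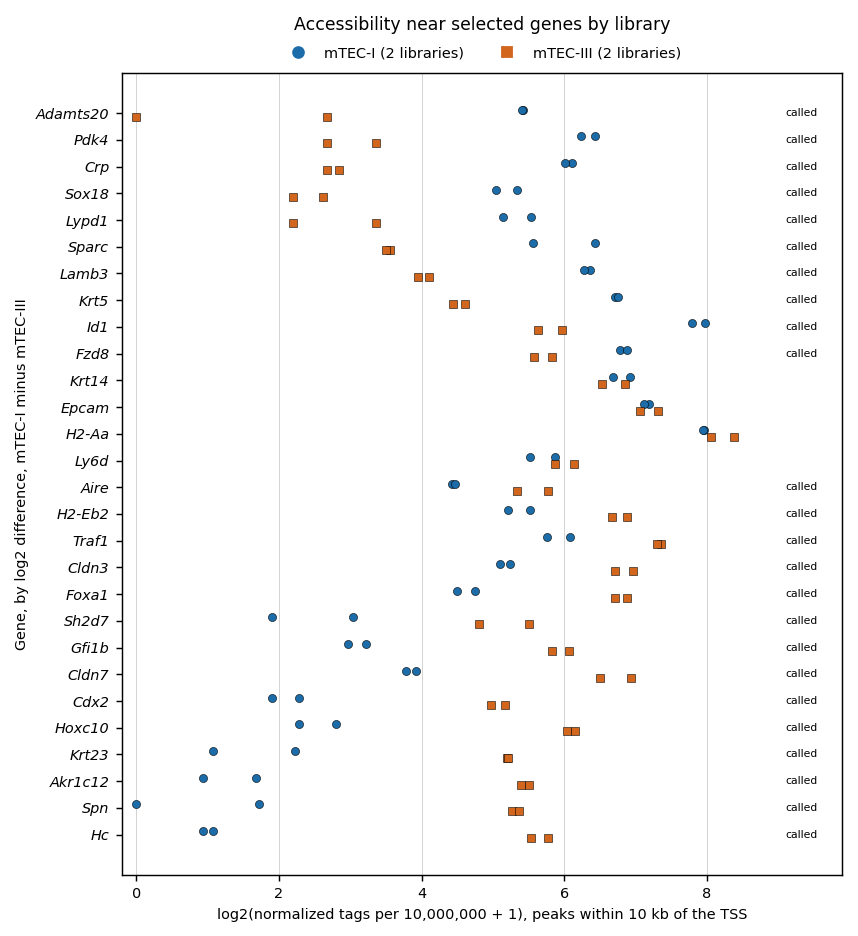
Normalized tags within 10 kb of the TSS on a log2(value + 1) scale (horizontal axis) for 28 genes named in the text (vertical axis), ordered from the largest positive log2 difference at the top to the largest negative at the bottom. Blue circles are the 2 mTEC-I libraries, orange squares the 2 mTEC-III libraries, and genes called by limma are marked. Krt5 and Id1 in mTEC-I lie beyond both mTEC-III libraries, and Epcam and Krt14 overlap.

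All called genes of a basal epithelial list were more open in mTEC-I. In a list of basal keratins, integrins and laminins, 9 of the 24 tested were called higher in mTEC-I and 0 lower, with a median log2 difference of 0.59, against 8.74%, 8.24% and a median of 0.01 over all genes tested. The same shares over all genes are the background of each gene list below. Of the 9 called members, 5 kept the call when any single library was left out. Krt5 led the keratins. Lamb3, a laminin subunit of the epithelial basement membrane, had 81.2 and 76.5 normalized tags in mTEC-I, against 16.1 and 14.4 in mTEC-III (log2 difference 2.30 ± 0.38 SE, adjusted p = 0.000373). Igfbp2, a secreted binder of insulin-like growth factors, had 10.5 and 11.1 normalized tags in mTEC-I, against 0 and 2.06 in mTEC-III (log2 difference 2.75 ± 0.80 SE, adjusted p = 0.0215). The Igfbp2 values came from 43 read ends in mTEC-I and 2 in mTEC-III, a ratio of 8.22 with an exact 95% counting interval of 2.14 to 70.04. The integrin genes Itga3, Itga6 and Itgb1, which form receptors for laminin, were also higher, with log2 differences of 0.62, 0.90 and 1.09. Trp63, the master regulator of stratified epithelium, and Krt14, the pairing partner of Krt5, were not called at the gene level, with log2 differences of 0.12 ± 0.36 SE and 0.11 ± 0.22 SE. The calls of Igfbp2 (adjusted p = 0.144) and Itga3 (0.0776) were lost without mTEC-I replicate 1. Those of Igfbp2 (0.171) and Itga3 (0.108) were lost without mTEC-I replicate 2. Those of Igfbp2 (0.115) and Itga3 (0.107) were lost without mTEC-III replicate 1.

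At single peaks, Krt5 and Krt14 differed in another way. The Krt5 promoter peak centred 37 bp before the TSS, in the window shown above, had 41.1 and 48.8 normalized tags in mTEC-I, against 3.34 and 9.16 in mTEC-III (log2 difference 2.79 ± 0.62 SE, adjusted p = 0.00561). A peak 1022 bp before the TSS had 39.3 and 40.1 normalized tags in mTEC-I, against 8.33 and 9.16 in mTEC-III (log2 difference 2.06 ± 0.49 SE, adjusted p = 0.00784). At Krt14 a peak 97 bp before the TSS was higher in mTEC-I, with 28.3 and 33.1 normalized tags in mTEC-I, against 0 and 5.09 in mTEC-III (log2 difference 3.68 ± 0.89 SE, adjusted p = 0.00882). Another peak 583 bp inside the gene was lower, with 16.8 and 19.5 normalized tags in mTEC-I, against 63.3 and 40.7 in mTEC-III (log2 difference -1.44 ± 0.32 SE, adjusted p = 0.00592), and a peak 14298 bp before the TSS was lower too (log2 difference -3.11 ± 0.69 SE, adjusted p = 0.00537). Krt14 thus held called peaks of both directions, which its gene sum did not show. Trp63 was similar, with 6 of 18 tested peaks called higher and 2 lower. Its peak 80558 bp before the TSS had 25.6 and 24.9 normalized tags in mTEC-I, against 6.67 and 1.01 in mTEC-III (log2 difference 2.74 ± 0.70 SE, adjusted p = 0.0113). The peak 49917 bp before the TSS had 3.98 and 0.541 normalized tags in mTEC-I, against 30 and 26.5 in mTEC-III (log2 difference -3.40 ± 0.56 SE, adjusted p = 0.000962). The calls of the Krt5 peak at -37 bp (adjusted p = 0.0615), the Krt5 peak at -1022 bp (0.0890), the Krt14 peak at -97 bp (0.0764), the Krt14 peak at 583 bp (0.0682), the Krt14 peak at -14298 bp (0.0858) and the Trp63 peak at -80558 bp (0.101) were lost without mTEC-I replicate 1. Those of the Krt5 peak at -37 bp (0.0858), the Krt5 peak at -1022 bp (0.0959), the Krt14 peak at -97 bp (0.0949) and the Trp63 peak at -80558 bp (0.1004) were lost without mTEC-I replicate 2. Those of the Krt14 peak at -97 bp (0.0930) and the Krt14 peak at 583 bp (0.0512) were lost without mTEC-III replicate 1. That of the Trp63 peak at -80558 bp (0.0697) was lost without mTEC-III replicate 2.

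The called genes of extracellular matrix and growth factor binding were all higher in mTEC-I. In that list 11 of the 24 tested were called higher in mTEC-I and 0 lower, with a median log2 difference of 0.96. Tnc, 1 of the 11, was higher by 1.19 for its sum within 10 kb. Over peaks at any distance, 6 of its 19 tested peaks were called lower in mTEC-I and 1 higher. Of all tested peaks 12.4% were called lower and 10.6% higher. Of the 11 called members, 2 kept the call when any single library was left out. Sparc, a secreted matrix glycoprotein, had 85.3 and 46.01 normalized tags in mTEC-I, against 10.8 and 10.3 in mTEC-III (log2 difference 2.47 ± 0.47 SE, adjusted p = 0.00132). Col7a1, the anchoring fibril collagen of basement membranes, had 29.2 and 26.1 normalized tags in mTEC-I, against 5.37 and 2.06 in mTEC-III (log2 difference 2.69 ± 0.74 SE, adjusted p = 0.0157). Mgp, the matrix Gla protein that binds calcium and BMPs, had 43.8 and 43.8 normalized tags in mTEC-I, against 8.96 and 9.28 in mTEC-III (log2 difference 2.15 ± 0.55 SE, adjusted p = 0.0107). The basement membrane collagens Col4a2 and Col18a1 were higher by 1.97 and 1.77 on the log2 scale. Cyr61 and Ctgf, matrix-associated targets of YAP and TEAD factors in many cells, were higher by 1.32 and 1.02. The calls of Sparc (adjusted p = 0.0572), Col7a1 (0.172), Mgp (0.117), Col4a2 (0.0813), Col18a1 (0.0867) and Ctgf (0.132) were lost without mTEC-I replicate 1. Those of Col7a1 (0.159), Mgp (0.130) and Ctgf (0.202) were lost without mTEC-I replicate 2. That of Ctgf (0.170) was lost without mTEC-III replicate 1.

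In the TGF-beta and BMP pathway, whose ligands act through serine kinase receptors and SMAD proteins, 12 of the 37 tested were called higher in mTEC-I and 0 lower, with a median log2 difference of 0.58. Of the 12 called members, 4 kept the call when any single library was left out. Among receptors, Bmpr1b had 25.1 and 31.05 normalized tags in mTEC-I, against 3.59 and 8.26 in mTEC-III (log2 difference 2.15 ± 0.59 SE, adjusted p = 0.0165). Acvr1 had 34.7 and 31.05 normalized tags in mTEC-I, against 10.8 and 12.4 in mTEC-III (log2 difference 1.43 ± 0.44 SE, adjusted p = 0.0296). The TGF-beta receptors Tgfbr2 and Tgfbr1 were higher by 1.38 and 0.63 on the log2 scale. The inhibitory SMADs Smad6 and Smad7 were higher by 1.19 and 0.61, and the signal-carrying Smad3 by 0.76. Fstl1, a secreted glycoprotein that binds pathway ligands, had 41.5 and 29.9 normalized tags in mTEC-I, against 8.96 and 2.06 in mTEC-III (log2 difference 2.72 ± 0.76 SE, adjusted p = 0.0180). The calls of Bmpr1b (adjusted p = 0.0941), Acvr1 (0.201), Fstl1 (0.161), Tgfbr2 (0.0613), Tgfbr1 (0.0921), Smad7 (0.0519) and Smad3 (0.0892) were lost without mTEC-I replicate 1. Those of Bmpr1b (0.165), Acvr1 (0.161), Fstl1 (0.0970), Tgfbr2 (0.0697), Tgfbr1 (0.0973), Smad7 (0.288) and Smad3 (0.238) were lost without mTEC-I replicate 2. Those of Bmpr1b (0.102), Acvr1 (0.0842), Smad7 (0.0862) and Smad3 (0.0660) were lost without mTEC-III replicate 1. Those of Fstl1 (0.114) and Smad3 (0.0569) were lost without mTEC-III replicate 2.

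The Id genes, targets of BMP signalling that encode inhibitors of basic helix-loop-helix factors, were called higher in all 4 cases. Id1 had 250.1 and 221 normalized tags in mTEC-I, against 48.4 and 61.9 in mTEC-III (log2 difference 2.08 ± 0.19 SE, adjusted p = 7.76e-07), and its values in mTEC-I were over all those in mTEC-III. Id2, Id3 and Id4 were higher by 0.72, 0.86 and 0.87 on the log2 scale. The call of Id2 (adjusted p = 0.0733) was lost without mTEC-III replicate 1. At Id1, 3 of 6 tested peaks were called higher and none lower. The peak 1066 bp before the TSS had 78.7 and 69.9 normalized tags in mTEC-I, against 4.99 and 18.3 in mTEC-III (log2 difference 2.80 ± 0.42 SE, adjusted p = 0.000504). The peak at the TSS had 71.6 and 58.5 normalized tags in mTEC-I, against 15 and 18.3 in mTEC-III (log2 difference 1.90 ± 0.30 SE, adjusted p = 0.000795). The intergenic peak 3199 bp after the TSS (chr2:152565112-152565261 in mm9) had 52.6 and 63.97 normalized tags in mTEC-I, against 0 and 1.01 in mTEC-III (log2 difference 5.38 ± 0.54 SE, adjusted p = 2.67e-05), from 237 read ends in mTEC-I and 1 in mTEC-III. That is a ratio of 91.3 with an exact 95% counting interval of 16.2 to 3621.

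Wnt pathway genes, which act through Frizzled receptors and TCF factors, held more higher than lower calls. In the list 8 of the 39 tested were called higher in mTEC-I and 1 lower, with a median log2 difference of 0.33. Of the 9 called members, 3 kept the call when any single library was left out. Of the receptors, Fzd8 had 109 and 116 normalized tags in mTEC-I, against 46.6 and 55.7 in mTEC-III (log2 difference 1.13 ± 0.21 SE, adjusted p = 0.000984) and Fzd2 had 78.5 and 55.99 normalized tags in mTEC-I, against 17.9 and 19.6 in mTEC-III (log2 difference 1.77 ± 0.42 SE, adjusted p = 0.00603), and Fzd1, Fzd4 and Fzd5 were higher by 1.08, 1.01 and 0.93 on the log2 scale. Kremen2, a coreceptor of the secreted Wnt inhibitor Dkk1, had 36.1 and 17.7 normalized tags in mTEC-I, against 1.78 and 4.13 in mTEC-III (log2 difference 2.80 ± 0.57 SE, adjusted p = 0.00200). Dkk1 itself was the member called lower, with 0.916 and 7.76 normalized tags in mTEC-I, against 19.7 and 17.5 in mTEC-III (log2 difference -2.26 ± 0.64 SE, adjusted p = 0.0199), and its mTEC-I libraries stood apart from each other. The ligand Wnt4 and the repressor Tcf7l1 were higher by 0.99 and 0.87. The calls of Fzd2 (adjusted p = 0.108), Kremen2 (0.0913), Dkk1 (0.326), Wnt4 (0.136) and Tcf7l1 (0.119) were lost without mTEC-I replicate 1. Those of Fzd4 (0.0706) and Wnt4 (0.0590) were lost without mTEC-I replicate 2. Those of Dkk1 (0.0726), Fzd4 (0.0510), Wnt4 (0.0675) and Tcf7l1 (0.132) were lost without mTEC-III replicate 1.

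Among Notch pathway genes, 7 of the 23 tested were called higher in mTEC-I and 2 lower, with a median log2 difference of 0.26. Of the 9 called members, 0 kept the call when any single library was left out. The ligand Jag2 had 89.5 and 85.4 normalized tags in mTEC-I, against 55.6 and 29.9 in mTEC-III (log2 difference 1.08 ± 0.25 SE, adjusted p = 0.00564). The target repressor Hes5 had 12.8 and 11.1 normalized tags in mTEC-I, against 5.37 and 1.03 in mTEC-III (log2 difference 1.85 ± 0.57 SE, adjusted p = 0.0309). The related repressors Hey1, Hey2 and Heyl and the ligand Jag1 were higher by 0.75, 0.76, 0.73 and 0.64 on the log2 scale. The lower members were Dtx1, an E3 ligase that modulates Notch, with 13.2 and 7.21 normalized tags in mTEC-I, against 41.2 and 28.9 in mTEC-III (log2 difference -1.72 ± 0.41 SE, adjusted p = 0.00639), and the receptor Notch4, with 19.2 and 18.9 normalized tags in mTEC-I, against 46.6 and 38.2 in mTEC-III (log2 difference -1.11 ± 0.30 SE, adjusted p = 0.0144). The calls of Jag2 (adjusted p = 0.0615), Hes5 (0.186), Notch4 (0.0870), Hey2 (0.0719), Heyl (0.115) and Jag1 (0.0954) were lost without mTEC-I replicate 1. Those of Jag2 (0.0506), Hes5 (0.151), Dtx1 (0.115), Notch4 (0.101), Hey1 (0.0975), Heyl (0.206) and Jag1 (0.0591) were lost without mTEC-I replicate 2. Those of Dtx1 (0.0510), Notch4 (0.0727) and Heyl (0.127) were lost without mTEC-III replicate 1. Those of Jag2 (0.0532) and Hes5 (0.172) were lost without mTEC-III replicate 2.

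Chemokine genes added a group with no lower call. Of the medullary chemokines and receptors, 6 of the 21 tested were called higher in mTEC-I and 0 lower, with a median log2 difference of 0.70. Of the 6 called members, 0 kept the call when any single library was left out. Ccl2 and Ccl7, neighbouring attractants of monocytes, had 31.04 and 43.8 normalized tags in mTEC-I, against 5.37 and 13.4 in mTEC-III (log2 difference 1.98 ± 0.52 SE, adjusted p = 0.0118) and 28.8 and 41.6 normalized tags in mTEC-I, against 8.96 and 6.19 in mTEC-III (log2 difference 2.07 ± 0.58 SE, adjusted p = 0.0179). Cxcl14, an epithelial chemokine, had 23.3 and 18.8 normalized tags in mTEC-I, against 3.59 and 5.15 in mTEC-III (log2 difference 2.05 ± 0.68 SE, adjusted p = 0.0434). Cxcl11, a ligand of Cxcr3, had 112 and 104 normalized tags in mTEC-I, against 57.4 and 54.7 in mTEC-III (log2 difference 0.93 ± 0.22 SE, adjusted p = 0.00584). Ccl25, the attractant of thymocyte progenitors, and Ccl5 were higher by 0.50 and 0.87 on the log2 scale. Ccl21b, a close copy of the Ccl21a gene whose reads may be shared with it, was not called, with 10.95 and 14.97 in mTEC-I and 3.59 and 7.22 in mTEC-III. The calls of Ccl2 (adjusted p = 0.0649), Ccl7 (0.0779), Cxcl14 (0.280), Cxcl11 (0.0941), Ccl25 (0.157) and Ccl5 (0.113) were lost without mTEC-I replicate 1. Those of Ccl2 (0.176), Ccl7 (0.198), Cxcl14 (0.216), Cxcl11 (0.0608), Ccl25 (0.278) and Ccl5 (0.107) were lost without mTEC-I replicate 2. Those of Ccl2 (0.0949), Cxcl14 (0.119) and Ccl25 (0.162) were lost without mTEC-III replicate 1. That of Ccl7 (0.0555) was lost without mTEC-III replicate 2.

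Interferon response genes were split. In the list 4 of the 25 tested were called higher in mTEC-I and 1 lower, with a median log2 difference of 0.38. Over all genes tested the shares were 8.74% and 8.24%. Of the 5 called members, 0 kept the call when any single library was left out. Oas1a, a sensor of double-stranded RNA, had 39.7 and 39.9 normalized tags in mTEC-I, against 12.5 and 10.3 in mTEC-III (log2 difference 1.72 ± 0.41 SE, adjusted p = 0.00627). The antiviral GTPase Mx2 had 93.6 and 68.2 normalized tags in mTEC-I, against 35.9 and 40.2 in mTEC-III (log2 difference 1.05 ± 0.31 SE, adjusted p = 0.0250). Ifi44 and Bst2 were also higher, by 2.60 and 1.01 on the log2 scale. Ifit1, which binds foreign capped RNA, was lower, with 1.37 and 0 normalized tags in mTEC-I, against 17.9 and 11.3 in mTEC-III, from 3 read ends in mTEC-I and 21 in mTEC-III. That is a ratio of 18.3 with an exact 95% counting interval of 5.47 to 95.9, higher in mTEC-III (log2 difference -3.31 ± 0.70 SE, adjusted p = 0.00289). The calls of Oas1a (adjusted p = 0.0737), Mx2 (0.233), Ifi44 (0.181) and Bst2 (0.194) were lost without mTEC-I replicate 1. Those of Oas1a (0.0810), Mx2 (0.0600), Ifi44 (0.238), Ifit1 (0.0571) and Bst2 (0.0597) were lost without mTEC-I replicate 2. Those of Mx2 (0.0974) and Bst2 (0.0928) were lost without mTEC-III replicate 1. That of Ifi44 (0.337) was lost without mTEC-III replicate 2.

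In the Ly6 superfamily, small surface proteins to which Ly6d belongs, 5 of the 15 tested were called higher in mTEC-I and 2 lower, with a median log2 difference of 0.14. Of the 7 called members, 2 kept the call when any single library was left out. Lypd1 had 45.2 and 34.4 normalized tags in mTEC-I, against 3.57 and 9.28 in mTEC-III (log2 difference 2.56 ± 0.50 SE, adjusted p = 0.00160). Plaur, the urokinase receptor, had 32.9 and 36.6 normalized tags in mTEC-I, against 7.17 and 4.13 in mTEC-III (log2 difference 2.46 ± 0.71 SE, adjusted p = 0.0206). Ly6h and Ly6i were higher by 2.82 and 1.79, where Ly6h rested on 57 read ends in mTEC-I and 2 in mTEC-III, a ratio of 10.9 with an exact 95% counting interval of 2.88 to 92.1. Ly6g6c went the other way, with 5.93 and 4.99 normalized tags in mTEC-I, against 48.4 and 45.4 in mTEC-III (log2 difference -2.89 ± 0.47 SE, adjusted p = 0.000308), and Lypd2 was lower by -1.66. The calls of Plaur (adjusted p = 0.167), Ly6h (0.222) and Ly6i (0.201) were lost without mTEC-I replicate 1. Those of Plaur (0.217), Ly6h (0.188) and Ly6i (0.163) were lost without mTEC-I replicate 2. Those of Ly6i (0.629) and Lypd2 (0.0522) were lost without mTEC-III replicate 1. Those of Plaur (0.0538) and Ly6h (0.135) were lost without mTEC-III replicate 2.

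Tight junction genes were called in both directions, with Cldn7, Cldn3, Cldn4 and Cldn23 lower in mTEC-I and Cldn2 and Cldn12 higher. In the list 3 of the 19 tested were called higher in mTEC-I and 5 lower, with a median log2 difference of -0.04. Cldn7, Cldn3 and Cldn4 are claudins that seal the space between epithelial cells. Cldn7 had 14.2 and 12.8 normalized tags in mTEC-I, against 89.6 and 122 in mTEC-III (log2 difference -2.87 ± 0.22 SE, adjusted p = 6.57e-08). Cldn3 had 33.3 and 36.6 normalized tags in mTEC-I, against 104 and 124 in mTEC-III (log2 difference -1.67 ± 0.20 SE, adjusted p = 1.54e-05). Cldn4 had 32.9 and 35.5 normalized tags in mTEC-I, against 71.7 and 103 in mTEC-III (log2 difference -1.31 ± 0.23 SE, adjusted p = 0.000601). Each kept its call when any single library was left out. Cldn23 and Marveld3 were lower by -1.21 and -0.88 on the log2 scale, of which Marveld3 turned to 0.12 with the authors' scaling. The higher members were Cldn2, a pore-forming claudin with 49 read ends in mTEC-I and 3 in mTEC-III (a ratio of 6.24 with an exact 95% counting interval of 2.02 to 31.3), Cldn12 and the scaffold gene Cgn, with log2 differences of 2.72, 1.09 and 0.70. The calls of Cldn2 (adjusted p = 0.205) and Cgn (0.214) were lost without mTEC-I replicate 1. Those of Cldn2 (0.316), Cldn12 (0.106), Cgn (0.0521) and Marveld3 (0.0502) were lost without mTEC-I replicate 2. Those of Cldn2 (0.199) and Cgn (0.0948) were lost without mTEC-III replicate 1. At the Cldn7 promoter the peak 2 bp before the TSS had 12.8 and 11.4 normalized tags in mTEC-I, against 64.99 and 89.6 in mTEC-III (log2 difference -2.56 ± 0.24 SE, adjusted p = 1.88e-05). The Cldn3 peak 369 bp before the TSS had 21.7 and 15.7 normalized tags in mTEC-I, against 78.3 and 85.5 in mTEC-III (log2 difference -2.09 ± 0.25 SE, adjusted p = 0.000118).

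The called regulators of other tissues were all less open in mTEC-I. Of a list of lineage regulators from gut, endoderm, muscle, blood and nerve, 0 of the 24 tested were called higher in mTEC-I and 7 lower, with a median log2 difference of -0.31. Foxa1, a forkhead factor of endoderm that binds closed chromatin, had 26.01 and 21.6 normalized tags in mTEC-I, against 104 and 117 in mTEC-III (log2 difference -2.17 ± 0.22 SE, adjusted p = 2.41e-06). Cdx2, which specifies intestine, had 2.74 and 3.88 normalized tags in mTEC-I, against 30.5 and 35.1 in mTEC-III (log2 difference -2.98 ± 0.41 SE, adjusted p = 6.93e-05). Its relative Cdx1 had 12.8 and 7.76 normalized tags in mTEC-I, against 53.8 and 44.4 in mTEC-III (log2 difference -2.18 ± 0.35 SE, adjusted p = 0.000322). Gfi1b, a repressor of blood lineages that tuft cells also carry, had 6.85 and 8.32 normalized tags in mTEC-I, against 66.3 and 55.7 in mTEC-III (log2 difference -2.85 ± 0.29 SE, adjusted p = 3.09e-06). All 4 genes kept their calls when any single library was left out and stayed negative with the authors' scaling, at -1.18, -2.07, -1.22 and -1.89. Myod1 and Myog, which specify muscle, and Insm1, an endocrine regulator, were lower by -1.35, -0.79 and -0.92 on the log2 scale. Myog and Insm1 turned to 0.21 and 0.068 with the authors' scaling. The calls of Myod1 (adjusted p = 0.157) and Insm1 (0.249) were lost without mTEC-I replicate 1. That of Myog (0.424) was lost without mTEC-I replicate 2. Those of Myod1 (0.0519), Myog (0.196) and Insm1 (0.0649) were lost without mTEC-III replicate 2. At Foxa1, 4 of 7 tested peaks were called lower, the peak 633 bp before the TSS with 11.9 and 10.8 normalized tags in mTEC-I, against 30 and 54.99 in mTEC-III (log2 difference -1.75 ± 0.36 SE, adjusted p = 0.00326) and the peak 308 bp inside the gene with 6.63 and 5.42 normalized tags in mTEC-I, against 34.99 and 25.5 in mTEC-III (log2 difference -2.14 ± 0.42 SE, adjusted p = 0.00269).

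Genes of the mature, Aire-bearing stage held lower calls and no higher ones. In the list 0 of the 23 tested were called higher in mTEC-I and 4 lower, with a median log2 difference of -0.27. Aire had 20.5 and 21.1 normalized tags in mTEC-I, against 39.4 and 53.6 in mTEC-III (log2 difference -1.11 ± 0.28 SE, adjusted p = 0.00911), and with the authors' scaling its log2 difference was -0.13. The peak 49 bp inside Aire accounted for most of its tags, with 17.2 and 18.4 normalized tags in mTEC-I, against 33.3 and 43.8 in mTEC-III (log2 difference -1.06 ± 0.28 SE, adjusted p = 0.0132). Traf1, an adaptor of tumour necrosis factor receptors, had 52.9 and 66.5 normalized tags in mTEC-I, against 163 and 157 in mTEC-III (log2 difference -1.41 ± 0.20 SE, adjusted p = 8.48e-05). Tnfrsf11b, the decoy receptor osteoprotegerin, had 21.5 and 23.3 normalized tags in mTEC-I, against 59.1 and 49.5 in mTEC-III (log2 difference -1.24 ± 0.33 SE, adjusted p = 0.0136). The deacetylase gene Sirt1 was lower by -0.47, and turned to 0.53 with the authors' scaling. Cd80, a costimulatory ligand of mature mTEC, had 26.9 and 19.4 normalized tags in mTEC-I, against 37.6 and 31.98 in mTEC-III and was not called (log2 difference -0.58 ± 0.30 SE, adjusted p = 0.188, 0.39 with the authors' scaling). The calls of Aire (adjusted p = 0.0687), Tnfrsf11b (0.104), Sirt1 (0.193) and the Aire peak at 49 bp (0.0976) were lost without mTEC-I replicate 1. Those of Aire (0.0665), Tnfrsf11b (0.0805), Sirt1 (0.210) and the Aire peak at 49 bp (0.0798) were lost without mTEC-I replicate 2. Those of Tnfrsf11b (0.0731) and Sirt1 (0.218) were lost without mTEC-III replicate 1. That of the Aire peak at 49 bp (0.0577) was lost without mTEC-III replicate 2.

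For MHC class II presentation, 2 of the 17 tested were called higher in mTEC-I and 4 lower, with a median log2 difference of -0.27. For this and the other lists of this paragraph, the shares over all genes were 8.74% higher and 8.24% lower. H2-Eb2 had 44.7 and 36.04 normalized tags in mTEC-I, against 117 and 101 in mTEC-III (log2 difference -1.41 ± 0.23 SE, adjusted p = 0.000386), and H2-Eb1 and the class II regulator Rfx5 were lower by -0.45 and -0.48 on the log2 scale, and turned to 0.56 and 0.53 with the authors' scaling. The higher members were Ctsl, the cathepsin that processes class II peptides in cortical epithelium, with 58.9 and 83.2 normalized tags in mTEC-I, against 34.1 and 35.1 in mTEC-III (log2 difference 0.997 ± 0.27 SE, adjusted p = 0.0143), and H2-DMb1, a chain of the peptide editor, with 82.2 and 70.4 normalized tags in mTEC-I, against 44.8 and 44.4 in mTEC-III (log2 difference 0.76 ± 0.24 SE, adjusted p = 0.0362). Class II genes are close relatives of each other, so some reads may be shared. None of 18 tested genes of class I presentation was called by limma or edgeR in either direction. In the NF-kB pathway 1 of the 25 tested were called higher in mTEC-I and 3 lower, with a median log2 difference of -0.27: Rel and Nfkbia were lower by -0.69 and -0.32, turning to 0.32 and 0.69 with the authors' scaling, and Bcl3 was higher by 0.49. The calls of H2-Eb1 (adjusted p = 0.0652), Rfx5 (0.0740), H2-DMb1 (0.256), Rel (0.147), Nfkbia (0.177) and Bcl3 (0.0891) were lost without mTEC-I replicate 1. Those of H2-Eb1 (0.0842), Rfx5 (0.349), Ctsl (0.235), H2-DMb1 (0.129) and Nfkbia (0.162) were lost without mTEC-I replicate 2. Those of Rfx5 (0.383), H2-DMb1 (0.0813) and Nfkbia (0.124) were lost without mTEC-III replicate 1. Those of H2-DMb1 (0.0625) and Nfkbia (0.0555) were lost without mTEC-III replicate 2.

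Self antigens of other tissues were lower in mTEC-I where called, apart from 2 liver genes. Of the liver plasma proteins, 2 of the 14 tested were called higher in mTEC-I and 2 lower, with a median log2 difference of -0.14. Hc, complement component C5, had 0.908 and 1.11 normalized tags in mTEC-I, against 53.8 and 45.4 in mTEC-III (log2 difference -4.65 ± 0.46 SE, adjusted p = 2.41e-06). The acute-phase gene Orm1 had 64.4 and 56.5 normalized tags in mTEC-I, against 106 and 139 in mTEC-III (log2 difference -0.997 ± 0.19 SE, adjusted p = 0.00140, 0.002 with the authors' scaling). Crp, another acute-phase protein, was higher, with 68 and 63.2 normalized tags in mTEC-I, against 5.37 and 6.19 in mTEC-III (log2 difference 3.30 ± 0.60 SE, adjusted p = 0.000831), as was Apoc1 (log2 difference 1.58 ± 0.51 SE, adjusted p = 0.0369). Of the tissue-restricted antigens outside liver, 0 of the 16 tested were called higher in mTEC-I and 5 lower, with a median log2 difference of -0.63. Pomc, the hormone precursor of pituitary, had 7.30 and 12.2 normalized tags in mTEC-I, against 39.4 and 33.01 in mTEC-III (log2 difference -1.82 ± 0.34 SE, adjusted p = 0.000958). S100b of glia had 3.65 and 0.554 normalized tags in mTEC-I, against 12.5 and 17.5 in mTEC-III (log2 difference -2.56 ± 0.57 SE, adjusted p = 0.00389). Cela1 of pancreas had 6.85 and 5.54 normalized tags in mTEC-I, against 32.3 and 15.5 in mTEC-III (log2 difference -1.71 ± 0.41 SE, adjusted p = 0.00724). Fabp1 of liver and gut was lower by -2.39, from 1 read end in mTEC-I and 14 in mTEC-III. That is a ratio of 36.6 with an exact 95% counting interval of 5.57 to 1548. Of the 14, mTEC-III replicate 1 held 1 and replicate 2 held 13, a spread that the interval leaves out. Iapp of pancreatic islets was lower by -0.93, which turned to 0.062 with the authors' scaling. The calls of Apoc1 (adjusted p = 0.220), Fabp1 (0.0745) and Iapp (0.121) were lost without mTEC-I replicate 1. Those of Apoc1 (0.225), S100b (0.0907), Cela1 (0.0714), Fabp1 (0.163) and Iapp (0.193) were lost without mTEC-I replicate 2. Those of Apoc1 (0.0829), Cela1 (0.0823) and Iapp (0.226) were lost without mTEC-III replicate 1. Those of Apoc1 (0.0743) and Fabp1 (0.232) were lost without mTEC-III replicate 2.

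Of genes of tuft cells, chemosensory epithelial cells, 2 of the 31 tested were called higher in mTEC-I and 5 lower, with a median log2 difference of -0.68. For this list and the cornified list below, the shares over all genes were 8.74% higher and 8.24% lower. Alox5ap, of leukotriene synthesis, had 1.83 and 0.554 normalized tags in mTEC-I, against 21.5 and 13.4 in mTEC-III (log2 difference -3.10 ± 0.52 SE, adjusted p = 0.000434). Sh2d7 had 2.74 and 7.21 normalized tags in mTEC-I, against 26.9 and 44.4 in mTEC-III (log2 difference -2.68 ± 0.39 SE, adjusted p = 0.000102). The homeobox gene Hmx3 had 14.2 and 9.42 normalized tags in mTEC-I, against 41.2 and 31.98 in mTEC-III (log2 difference -1.57 ± 0.30 SE, adjusted p = 0.00137). The tuft regulator Pou2f3 and the channel Trpm5 were not called, with 64.4 and 68.2 in mTEC-I and 75.3 and 41.2 in mTEC-III for Pou2f3 and 0.916 and 1.66 in mTEC-I and 1.78 and 6.18 in mTEC-III for Trpm5. Dclk1, a kinase used as a tuft marker, was higher in mTEC-I (log2 difference 0.83 ± 0.26 SE, adjusted p = 0.0318), as was the calcium channel gene Itpr2 (log2 difference 1.16 ± 0.24 SE, adjusted p = 0.00217), which kept its call without any single library. Of the cornified epithelium list, 2 of the 23 tested were called higher in mTEC-I and 3 lower, with a median log2 difference of 0.09: Tgm5, a skin transglutaminase, had 0 and 1.11 normalized tags in mTEC-I, against 10.8 and 31.98 in mTEC-III (log2 difference -3.76 ± 0.66 SE, adjusted p = 0.000676), and the lipoxygenase Alox12b was lower by -0.87 and turned to 0.11 with the authors' scaling. Tgm5 rested on 2 read ends in mTEC-I and 37 in mTEC-III, a ratio of 48.4 with an exact 95% counting interval of 12.5 to 414. Dsc2, a desmosomal cadherin, was higher by 0.93. The calls of Dclk1 (adjusted p = 0.176), Alox12b (0.0635) and Dsc2 (0.123) were lost without mTEC-I replicate 1. Those of Dclk1 (0.168), Alox12b (0.413) and Dsc2 (0.0861) were lost without mTEC-I replicate 2. Those of Dclk1 (0.262), Alox12b (0.0646) and Dsc2 (0.102) were lost without mTEC-III replicate 1. That of Alox12b (0.139) was lost without mTEC-III replicate 2.

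Epithelial transcription factors were called in both directions. In the list 5 of the 29 tested were called higher in mTEC-I and 3 lower, with a median log2 difference of 0.31. For this and the other lists of this paragraph, the shares over all genes were 8.74% higher and 8.24% lower. Tfap2a, an AP-2 factor of surface ectoderm, had 97.7 and 93.7 normalized tags in mTEC-I, against 46.6 and 39.2 in mTEC-III (log2 difference 1.14 ± 0.25 SE, adjusted p = 0.00331). Elf5, an ETS factor of simple and glandular epithelium, had 9.13 and 4.44 normalized tags in mTEC-I, against 32.3 and 22.7 in mTEC-III (log2 difference -1.92 ± 0.49 SE, adjusted p = 0.0104). Ovol1, a zinc finger factor of differentiating epithelium, had 45.2 and 26.6 normalized tags in mTEC-I, against 80.7 and 76.3 in mTEC-III (log2 difference -1.15 ± 0.26 SE, adjusted p = 0.00395). Foxn1, the master regulator of thymic epithelium, had 81.7 and 78.7 normalized tags in mTEC-I, against 43.03 and 64.99 in mTEC-III and was not called (adjusted p = 0.156). Spib, an ETS factor of mTEC maturation, had 59.3 and 54.3 normalized tags in mTEC-I, against 46.6 and 26.8 in mTEC-III (adjusted p = 0.108). Grhl3, a regulator of barrier formation, had 72.6 and 73.2 normalized tags in mTEC-I, against 104 and 69.1 in mTEC-III (adjusted p = 0.549, turning to a log2 difference of 0.78 with the authors' scaling). Of 13 AP-1 subunit genes, Junb was higher by 0.51 and Mafk lower by -0.66, which turned to 0.34 with the authors' scaling. Of 26 cell cycle genes, Plk1 and Mcm3 were higher by 1.82 and 0.79 and Cdkn2a was lower by -1.69. Of 6 simple keratins, Krt23 alone was called, lower. The calls of Tfap2a (adjusted p = 0.0505), Junb (0.223), Mcm3 (0.138) and Cdkn2a (0.123) were lost without mTEC-I replicate 1. Those of Elf5 (0.166), Ovol1 (0.129), Junb (0.159) and Mcm3 (0.0764) were lost without mTEC-I replicate 2. Those of Elf5 (0.0637), Junb (0.291) and Mcm3 (0.0868) were lost without mTEC-III replicate 1. That of Cdkn2a (0.0613) was lost without mTEC-III replicate 2.

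**Figure D3:**
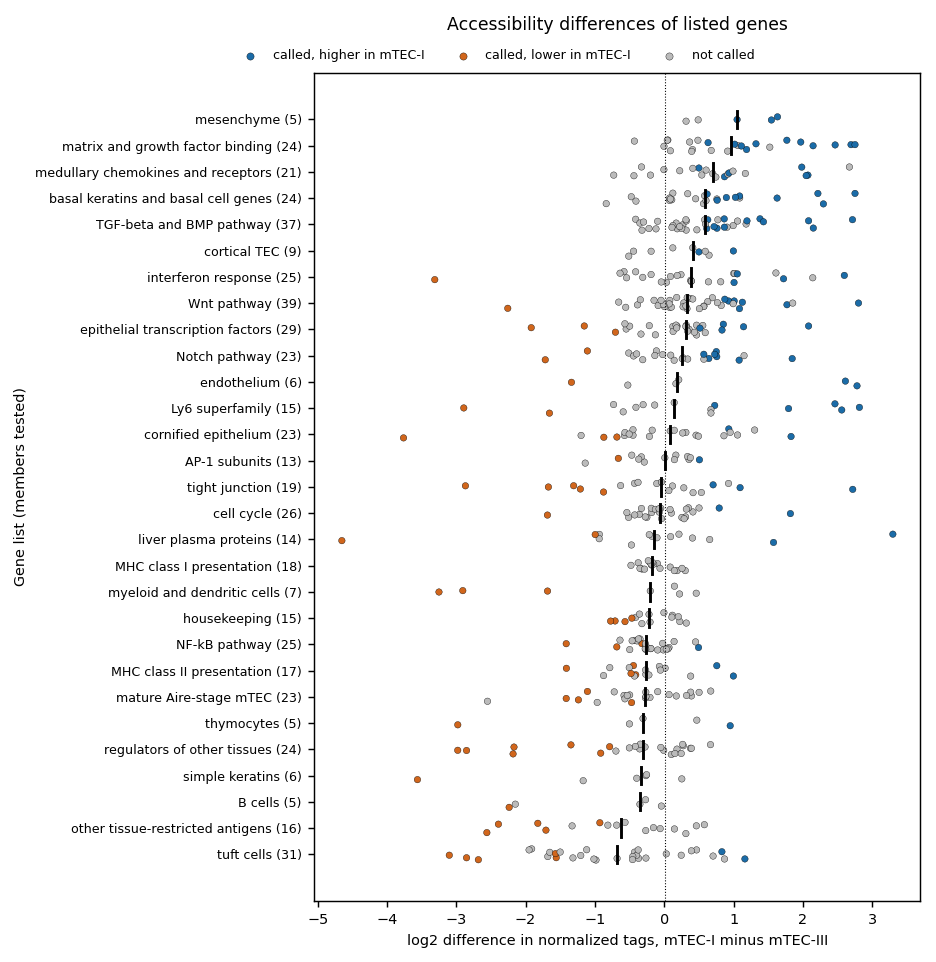
Log2 difference of mTEC-I minus mTEC-III in normalized tags within 10 kb of the TSS (horizontal axis) for each tested member of 29 gene lists (vertical axis, with the number tested). Each point is a gene, blue where called higher in mTEC-I, orange where called lower and grey where not called, the black bar is the list's median and the dotted line the median of all genes. Matrix, TGF-beta and basal lists lie right of the line with no orange point, and the Aire-stage and tissue regulator lists hold no blue point.

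Markers of other thymic cells differed between the groups in part. Beside the counts below, 8.74% of all genes tested were called higher and 8.24% lower. Of 5 tested mesenchymal genes, 3 were called higher in mTEC-I, and their summed level was 298 and 266 normalized tags in mTEC-I, against 186 and 143 in mTEC-III. Col1a1, the main collagen of fibroblasts, had 115 and 102 normalized tags in mTEC-I, against 50.2 and 53.6 in mTEC-III (log2 difference 1.05 ± 0.22 SE, adjusted p = 0.00232), while Pdgfrb, Col1a2, Dpt and Lum had no peak within 10 kb. The mesenchymal genes moved in the same direction as the matrix list, and their part in that result was not tested. Of 6 tested endothelial genes, Emcn and Sox18 were higher and Erg lower, with sums of 163 and 161 normalized tags in mTEC-I, against 172 and 142 in mTEC-III. Of 7 tested myeloid and dendritic cell genes, Itgam, Cd68 and Flt3 were lower in mTEC-I, with sums of 169 and 171 normalized tags in mTEC-I, against 186 and 196 in mTEC-III, and Itgax, Csf1r, Lyz2, Xcr1 and Clec9a had no peak within 10 kb. The B cell gene Blk was lower (log2 difference -2.24, adjusted p = 0.0199), with sums over 5 tested genes of 97.2 and 66.5 normalized tags in mTEC-I, against 86.1 and 121 in mTEC-III and no peak near Ms4a1 or Pax5. Of 5 tested thymocyte genes, Lck was lower and Bcl11b higher, and the median log2 difference of the 5 was -0.31. Their sums were 193 and 177 normalized tags in mTEC-I, against 151 and 133 in mTEC-III. Most of the mTEC-I sums came from Bcl11b alone, with 147 and 131 normalized tags in mTEC-I, against 64.5 and 78.4 in mTEC-III. Cd3d, Cd3e, Cd3g, Cd8a and Ptcra had no peak within 10 kb. Low counts lay behind some calls. Itgam had 1 read end in mTEC-I and 16 in mTEC-III, Lck 1 and 13, and Emcn 71 and 3. The exact 95% counting intervals of their ratios were 6.50 to 1755, 5.11 to 1445 and 2.97 to 44.9. Cd68 had 1 and 12 read ends in the mTEC-I libraries. Lck had 27.3 and 22.8 normalized tags in mTEC-IV libraries, above both mTEC-III libraries. Of 9 tested cortical epithelial genes, Ccl25 and Ctsl were higher, with sums of 711 and 731 normalized tags in mTEC-I, against 651 and 649.9 in mTEC-III. Among 15 housekeeping genes, Tbp, Ppia and Ywhaz were called lower by -0.71, -0.57 and -0.47, and all 3 turned positive with the authors' scaling (0.28, 0.44 and 0.54). The calls of Col1a1 (adjusted p = 0.0590), Emcn (0.274), Erg (0.0893), Itgam (0.0745), Cd68 (0.0871), Flt3 (0.154), Ccl25 (0.157), Tbp (0.361), Ppia (0.255) and Ywhaz (0.0872) were lost without mTEC-I replicate 1. Those of Emcn (0.256), Blk (0.234), Ccl25 (0.278), Ctsl (0.235), Tbp (0.0711) and Ywhaz (0.154) were lost without mTEC-I replicate 2. Those of Flt3 (0.0568), Ccl25 (0.162), Tbp (0.259) and Ywhaz (0.0801) were lost without mTEC-III replicate 1. Those of Emcn (0.0925) and Blk (0.0671) were lost without mTEC-III replicate 2.

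The 12 named genes with the largest rises in mTEC-I spanned log2 differences of 3.23 to 4.08, and most were near 0 in 1 mTEC-III library. Adamts20, a secreted metalloprotease that cleaves matrix, had 41.99 and 41.6 normalized tags in mTEC-I, against 5.37 and 0 in mTEC-III (log2 difference 4.08 ± 0.69 SE, adjusted p = 0.000468), from 167 read ends in mTEC-I and 3 in mTEC-III, a ratio of 21.3 with an exact 95% counting interval of 7.16 to 104. Pdk4, the kinase that turns off pyruvate dehydrogenase, had 74.4 and 85.4 normalized tags in mTEC-I, against 5.37 and 9.28 in mTEC-III (log2 difference 3.32 ± 0.47 SE, adjusted p = 8.81e-05), which lay in a promoter peak 416 bp before the TSS. Loxl1, a crosslinker of elastin, had 27.4 and 25.5 normalized tags in mTEC-I, against 0 and 5.15 in mTEC-III, and the heat-gated channel gene Trpv1 had 20.1 and 38.3 normalized tags in mTEC-I, against 7.17 and 0 in mTEC-III. Ghrhr, the receptor of growth hormone-releasing hormone, had 27.8 and 34.4 normalized tags in mTEC-I, against 0 and 5.15 in mTEC-III. The others were Crp, given above, the sodium channel gene Scn7a, Lrrc30, the interferon-induced GTPase gene Tgtp2, and the odorant receptor genes Olfr1120, Olfr536 and Olfr543, whose families hold near-identical copies that leave their reads uncertain. The calls of Ghrhr (adjusted p = 0.0597), Olfr1120 (0.116), Scn7a (0.114), Olfr536 (0.145) and Loxl1 (0.0984) were lost without mTEC-I replicate 1. Those of Ghrhr (0.0933), Olfr1120 (0.0568), Scn7a (0.0734), Olfr536 (0.0584), Loxl1 (0.0937), Olfr543 (0.0755) and Trpv1 (0.129) were lost without mTEC-I replicate 2. Those of Scn7a (0.0576) and Loxl1 (0.117) were lost without mTEC-III replicate 1.

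The 12 named genes with the largest falls spanned -3.51 to -4.65 and kept their calls without any single library. After Hc, these were Neu2, a cytosolic sialidase, with 1.37 and 0.554 normalized tags in mTEC-I, against 39.4 and 46.4 in mTEC-III (log2 difference -4.51 ± 0.50 SE, adjusted p = 8.84e-06), and Spn, the leukocyte sialoglycoprotein CD43, with 2.29 and 0 normalized tags in mTEC-I, against 37.6 and 40.2 in mTEC-III (log2 difference -4.46 ± 0.53 SE, adjusted p = 1.52e-05). The chloride channel gene Clic3 had 0 and 3.33 normalized tags in mTEC-I, against 43.03 and 41.3 in mTEC-III, and Arhgef38 had 5.02 and 0.554 normalized tags in mTEC-I, against 57.4 and 57.8 in mTEC-III (log2 difference -4.26 ± 0.44 SE, adjusted p = 3.09e-06). Akr1c12 and Akr1c13, whose promoter windows are shown above, had log2 differences of -4.14 and -3.86. Krt23 had 3.66 and 1.11 normalized tags in mTEC-I, against 35.8 and 36.1 in mTEC-III (log2 difference -3.56 ± 0.43 SE, adjusted p = 1.66e-05). Hoxc10, a homeobox gene of posterior body position, had 5.93 and 3.88 normalized tags in mTEC-I, against 69.9 and 64.99 in mTEC-III (log2 difference -3.56 ± 0.32 SE, adjusted p = 7.10e-07). Ctcfl, the germ cell paralog of CTCF, had 1.82 and 1.66 normalized tags in mTEC-I, against 59.2 and 22.7 in mTEC-III, and its mTEC-III libraries stood apart. Dock2, a Rac activator of blood cells, had 1.37 and 19.4 normalized tags in mTEC-I, against 93.2 and 66.03 in mTEC-III, and its mTEC-I libraries stood apart. Aim1l completed the group.

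The other 2 populations place some of these differences. Over tested peaks, log2 values of the 2 mTEC-I libraries had a Pearson correlation of 0.94, and those of the 2 mTEC-III libraries 0.79. With the mTEC-II libraries, mTEC-III replicate 2 correlated at 0.81 and 0.83, above its own replicate, and mTEC-III replicate 1 at 0.76 and 0.78. Krt5 had 25.8 and 16.8 normalized tags in mTEC-II libraries and 16.6 and 13.4 in mTEC-IV libraries, and Id1 had 77.5 and 82.2 in mTEC-II libraries and 61.2 and 54.5 in mTEC-IV libraries, in each case below both mTEC-I libraries. The claudin gene Cldn7 had 101 and 123 in mTEC-II libraries and 134 and 126 in mTEC-IV libraries, and Hoxc10 had 70.7 and 47.1 in mTEC-II libraries and 53.8 and 54.01 in mTEC-IV libraries, in each case above both mTEC-I libraries. Hc had 22.5 and 30.3 in mTEC-II libraries and 13.3 and 24.8 in mTEC-IV libraries, between the mTEC-I and mTEC-III values. Ly6g6c likewise had 19.1 and 11.97 in mTEC-II libraries and 6.65 and 13.9 in mTEC-IV libraries, below the mTEC-III values. Several genes lower in mTEC-I than in mTEC-III were highest in mTEC-IV. In mTEC-IV libraries S100b had 77.1 and 84.7, Fabp1 52.5 and 43.6, Sh2d7 137 and 130, Alox5ap 59.8 and 70.4 and Gfi1b 87.1 and 105. Not all were so: Hc and Ly6g6c, as given above, were lower in mTEC-IV than in mTEC-III. The Cela1 ranges overlapped, with 34.6 and 29.2 in mTEC-IV libraries, 28.1 and 31.1 in mTEC-II libraries and 32.3 and 15.5 in mTEC-III.

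Single peaks with the largest rises lay in introns, an exon or between genes, and several were at 0 in both mTEC-III libraries. After the Id1 peak, a peak in an intron of Dst, which encodes a linker of hemidesmosomes to keratin (chr1:34207632-34207846 in mm9), had 33.1 and 41.2 normalized tags in mTEC-I, against 0 and 0 in mTEC-III (log2 difference 5.25 ± 0.66 SE, adjusted p = 0.000169). A count of 3 read ends over both mTEC-III libraries makes it at least 18.5-fold higher in mTEC-I. On the same floor, an exonic peak of Cer1, a secreted inhibitor of BMP and Nodal (chr4:82530518-82530756), was at least 16.1-fold higher. An intergenic peak nearest to Ifnlr1, the interferon lambda receptor (chr4:135226904-135227141), was at least 15.97-fold higher, and a peak 147852 bp before the start of the transcription factor gene Maf (chr8:118378519-118378774) at least 14.3-fold. An intronic peak 392855 bp from the start of Sorcs3 (chr19:48673271-48673470) had 54.8 and 51.5 normalized tags in mTEC-I, against 0 and 2.04 in mTEC-III, a ratio of 42.2 with an exact 95% counting interval of 11.5 to 350.5.

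The peaks with the largest falls lay in introns or between genes. A peak in an intron of the adenosine kinase gene Adk (chr14:21932092-21932336 in mm9) had 0 and 0 normalized tags in mTEC-I, against 45 and 32.6 in mTEC-III (log2 difference -5.30 ± 0.59 SE, adjusted p = 8.30e-05), and was at least 52.6-fold lower in mTEC-I. Intronic peaks of Ccbl1 (chr2:30055591-30055790) and Eya3 (chr4:132239737-132239936) were at least 41.97-fold and 41.8-fold lower, and an intergenic peak near Bok (chr1:95600132-95600286) at least 38.5-fold lower. A peak nearest to Kcnq1ot1, an imprinted antisense transcript (chr7:150392945-150393282), had 0.887 and 1.08 normalized tags in mTEC-I, against 63.3 and 51.9 in mTEC-III (log2 difference -4.88 ± 0.48 SE, adjusted p = 2.46e-05). A peak 48081 bp before Tob1 (chr11:94024516-94024859) had 0 and 0.541 normalized tags in mTEC-I, against 31.7 and 37.7 in mTEC-III, from 1 read end in mTEC-I and 56 in mTEC-III, a ratio of 145 with an exact 95% counting interval of 25.05 to 5844, higher in mTEC-III. Kcnq1ot1 is antisense to Kcnq1, in whose intron the peak lies, and ATAC-seq reads do not tell the strands apart. These 6 lower peaks and the 6 higher ones kept their calls without any single library when the same peaks were tested.

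Some genes held several peaks called in the same direction. Of 17517 genes with a tested peak at any distance, 501 held at least 3 peaks called higher and 549 at least 3 called lower. Over all tested peaks, the background for this and the next paragraph, 10.6% were called higher and 12.4% lower. Neighbouring peaks share sequence context and libraries and are not replicates of each other. The loci in this and the next paragraph were chosen after their values were seen. At Mir205, 6 of 12 tested peaks were called higher in mTEC-I and none lower. The peak 61272 bp before its start had 37.6 and 30.9 normalized tags in mTEC-I, against 1.66 and 0 in mTEC-III (log2 difference 4.43 ± 0.85 SE, adjusted p = 0.00229), a ratio of 54.7 with an exact 95% counting interval of 9.66 to 2175, and the peak 2750 bp before it had 45.1 and 43.4 normalized tags in mTEC-I, against 6.67 and 15.3 in mTEC-III (log2 difference 2.02 ± 0.44 SE, adjusted p = 0.00506). These lie upstream of the hairpin whose 2 mature arms are printed above, and no mature miR-205 was measured here. Bcl11b, a zinc finger factor of T cells and skin, held 6 of 8 peaks called higher, the peak 2970 bp before the TSS with 57.9 and 54.2 normalized tags in mTEC-I, against 13.3 and 14.3 in mTEC-III (log2 difference 1.95 ± 0.30 SE, adjusted p = 0.000663). Fzd8 held 6 of 10 and the axon guidance receptor gene Robo1 8 of 18, and the largest counts were 13 of 35 at Nav2, a neuron navigator gene, and 11 of 25 at Zfp608. The call of the Mir205 peak at -2750 bp was lost without mTEC-I replicate 1 (adjusted p = 0.0705) and mTEC-I replicate 2 (0.0666).

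Among loci with lower peaks, Tomm20, a receptor of the mitochondrial import pore, held 10 of 26, Rftn1, a lipid raft protein gene, 9 of 21 and Ier5 8 of 21. Kit, the stem cell factor receptor, held 6 of 15 called lower and none higher. Its peak 14803 bp inside the gene had 2.65 and 1.08 normalized tags in mTEC-I, against 36.7 and 17.3 in mTEC-III (log2 difference -3.25 ± 0.52 SE, adjusted p = 0.000813). The peak 65810 bp inside had 6.63 and 3.80 normalized tags in mTEC-I, against 51.7 and 36.7 in mTEC-III (log2 difference -2.88 ± 0.34 SE, adjusted p = 0.000113). Irf2, an interferon regulatory factor, held 6 of 17 called lower, with 5.31 and 7.05 normalized tags in mTEC-I, against 51.7 and 49.9 in mTEC-III at the peak 60139 bp inside (log2 difference -2.86 ± 0.33 SE, adjusted p = 0.000111). Tnfrsf11a, the receptor RANK that drives mTEC maturation, had no called peak at its promoter, where the peak 123 bp before the TSS had 40.7 and 37.4 normalized tags in mTEC-I, against 46.7 and 54.99 in mTEC-III (adjusted p = 0.278). Its peak 32134 bp before the TSS had 0.440 and 0.541 normalized tags in mTEC-I, against 30 and 30.5 in mTEC-III (log2 difference -4.39 ± 0.50 SE, adjusted p = 9.31e-05). In all, 4 of 17 peaks of Tnfrsf11a were called lower and 1 higher. Nfkbia, the inhibitor of NF-kB, held 7 of 17 called lower and 1 higher, all away from its promoter peak of 125 and 121 in mTEC-I and 135 and 134 in mTEC-III.

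**Figure D4:**
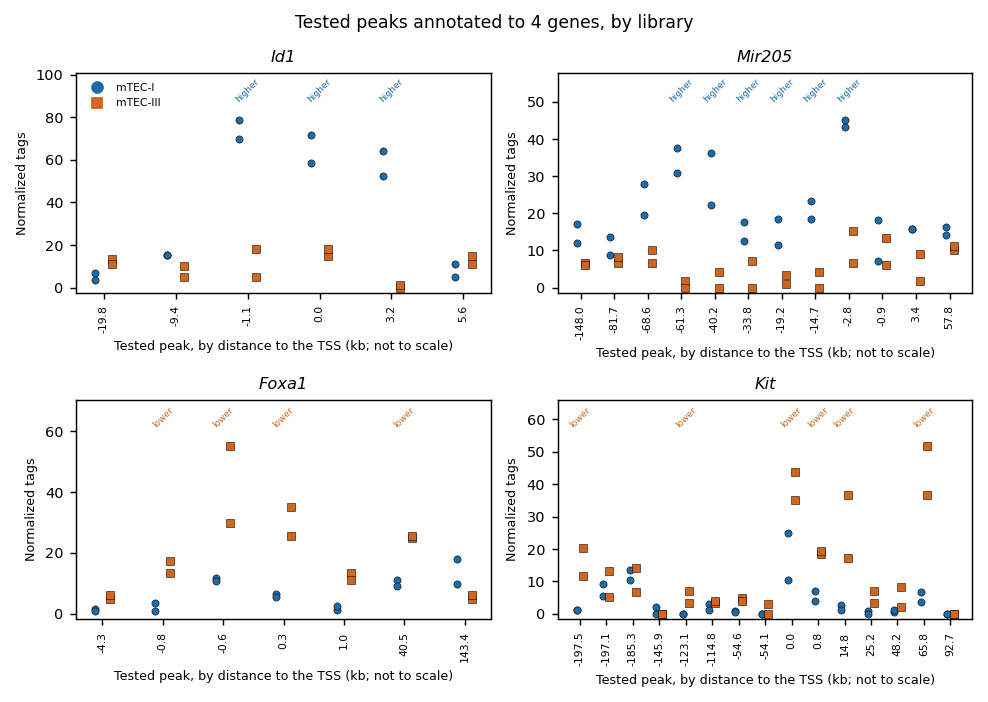
Normalized tags (vertical axis) of each tested peak annotated to Id1, Mir205, Foxa1 and Kit, ordered by distance to the TSS in kb (horizontal axis, not to scale). Blue circles are the 2 mTEC-I libraries and orange squares the 2 mTEC-III libraries, and peaks called by limma are marked higher or lower in mTEC-I. Called peaks are higher in mTEC-I at Id1 (3 of 6) and Mir205 (6 of 12) and lower at Foxa1 (4 of 7) and Kit (6 of 15).

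Calls depended on where a peak lay. Of 12706 promoter peaks, 7.85% were called higher in mTEC-I and 4.74% lower, of 21107 intronic peaks 10.4% were called higher in mTEC-I and 16.1% lower, and of 21063 intergenic peaks 12.8% were called higher in mTEC-I and 13.9% lower. By distance, 7.14% of peaks within 100 bp of a TSS were called higher and 4.24% lower. From 1 to 10 kb the shares were 8.19% higher and 16.2% lower, and from 10 to 50 kb 10.2% higher and 16.4% lower. Beyond 100 kb they were 19.3% higher and 12.4% lower. Lower peaks were thus the larger share from 1 to 50 kb, and higher peaks were the larger share within 1 kb and beyond 50 kb. edgeR gave the same order in each class, with 22.7% higher and 15.2% lower beyond 100 kb, as did cyclic loess, whereas TMM factors from promoter peaks turned the class from 50 to 100 kb to 13.1% higher and 14.3% lower. Under the authors' scaling 88.8% of all called peaks were higher. Peaks in CpG islands, promoter-like stretches rich in CpG, were called higher in 7.84% of 2257 and lower in 3.46%. Promoter peaks had a median of 42.7 normalized tags, against 11.7 for intronic and 12.8 for intergenic peaks, and so more read ends behind each value, and peak strength was not matched between classes.

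**Figure D5:**
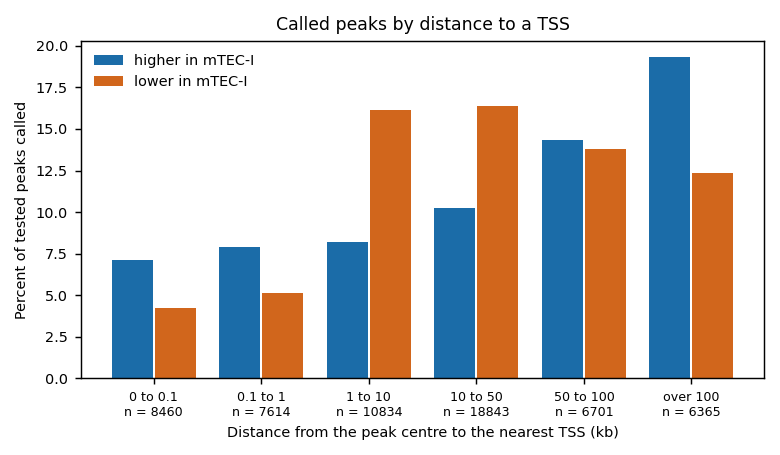
Percent of tested merged peaks called higher (blue) and lower (orange) in mTEC-I (vertical axis) by distance from the peak centre to the nearest TSS (horizontal axis, kb, with the number of peaks tested). From 1 to 50 kb the lower share is larger (16.2% and 16.4%), and beyond 100 kb the higher share is (19.3%).

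Peaks in repeats were called lower in mTEC-I more often than higher. Of 51 satellite peaks 30 were called lower and none higher by limma (78.4% lower and none higher by edgeR), with a median log2 difference of -0.96, which was 0.01 with the authors' scaling. L1 elements, a family of retrotransposons, had 23.5% lower and 11.7% higher of 1047 peaks, with a median of -0.75 and -0.02 with the authors' scaling. LTR elements had 22.9% lower and 11.1% higher of 2082, and SINEs 18.6% lower and 8.06% higher of 1266, with medians of -0.40 and -0.49 that turned to 0.49 and 0.40 with the authors' scaling. The authors' treatment of reads that map to several places is not given in the sources used here.

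The authors' own peak lists, called in each library alone, differed in length with the share of tags in peaks. They held 44288 and 39040 peaks in mTEC-I, against 10525 and 19507 in mTEC-III. Of merged peaks, 32561 overlapped a listed peak in both mTEC-I libraries and 9545 in both mTEC-III libraries, and the 8859 listed in all 4 libraries are 27.2% of those of mTEC-I and 92.8% of those of mTEC-III. Of 17102 merged peaks listed in both mTEC-I libraries and in neither mTEC-III library, 4787 (28.0%) were called higher. Of 421 listed in both mTEC-III libraries and in neither mTEC-I library, 375 (89.1%) were called lower. The lists and the calls come from the same reads, so a lean to the listed group was built in and is no separate support. Of the 17102, another 1272 were too low in the scaled values to be tested.

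Promoter windows with a called peak were searched on both strands for 20 motifs. Of 4938 genes with 1 RefSeq window at the gene's outer end and a tested peak in it, 356 had a peak called higher in mTEC-I and 221 lower. A TEAD match (CATTCCA) stood in 7.30% of windows with a higher peak and 2.71% of those with a lower one, against 2.45% with an uncalled peak and 4.29% of all 32851 windows in the table. The Wtip window shown above was picked for the largest rise among windows with both a higher peak and a TEAD match. Its match and its rise are therefore no evidence on that motif. It holds 2 TEAD matches, 246 and 134 bases before the start site, and its peak had 37.6 and 30.9 normalized tags in mTEC-I, against 0 and 2.04 in mTEC-III (log2 difference 4.33 ± 0.65 SE, adjusted p = 0.000540). An ETS match (ACCGGAAGT) stood in 0.843% of windows with a higher peak and 4.98% with a lower one (2.77% uncalled, 1.10% of all). A FOX match (TGTTTAC) stood in 1.69% and 4.52% (2.45% uncalled, 3.65% of all), and a RUNX match (AACCACA) in 1.97% and 5.43% (3.28% uncalled, 5.27% of all). The PU.1 and Spi-B motif (GAGGAAGT) stood in 2.81% and 5.43% (2.64% uncalled, 3.202% of all), and the AP-1 motif (TGANTCA) in 5.06% and 7.69% (4.49% uncalled, 7.81% of all). KLF and SP matches (CCNCNCCC) stood in 80.1% and 62.4% (71.9% uncalled, 49.5% of all), and the NF-kB motif in 0.562% and 0.452% (0.642% uncalled, 0.411% of all). The other 12 motifs searched were those of p63, GRHL, CTCF, IRF, octamer, RFX, HNF4, HNF1, NFI and C/EBP factors, a wider NF-kB motif and the E-box. In counts, TEAD matches stood in 26 windows with a higher peak and 6 with a lower one, and ETS matches in 3 and 11. FOX matches stood in 6 and 10, RUNX in 7 and 12, and PU.1 and Spi-B in 10 and 12. AP-1 matches stood in 18 and 17, KLF and SP in 285 and 138, and NF-kB in 2 and 1. The FOX windows with a lower peak include those of Akr1c12 and Akr1c13, which are near-identical and not independent. The NF-kB window with a lower peak is that of Krt23, shown above. A match describes letters in the window and does not show that a factor binds there.

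Among the other windows printed, the Slc46a2 peak 162 bp before the TSS had 57.02 and 63.4 normalized tags in mTEC-I, against 3.34 and 10.2 in mTEC-III (log2 difference 3.13 ± 0.53 SE, adjusted p = 0.00111). The Akr1c12 peak 81 bp before the TSS had 0.887 and 2.17 normalized tags in mTEC-I, against 38.3 and 43.8 in mTEC-III (log2 difference -4.10 ± 0.40 SE, adjusted p = 2.41e-05). The Akr1c13 peak 79 bp before its TSS had 0.887 and 3.26 normalized tags in mTEC-I, against 38.3 and 39.7 in mTEC-III (log2 difference -3.82 ± 0.45 SE, adjusted p = 0.000113). The 2 Akr1c peaks had the same value in 1 mTEC-I library and in 1 mTEC-III library, and reads of near-identical copies cannot be placed with certainty. Their FOX match lies 25 and 28 bases before the start site. The Krt23 peak 132 bp before the TSS had 1.33 and 1.08 normalized tags in mTEC-I, against 19.99 and 15.3 in mTEC-III (log2 difference -3.07 ± 0.54 SE, adjusted p = 0.00142), and its window holds an NF-kB match 53 bases before the start site.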

How the data were processed

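ATAC-seq of 2 mTEC-I and 2 mTEC-III libraries was compared, with groups and replicates from the labels. The submitters' processing notes name mm9, HOMER, Picard 1.108 and bcl2fastq 2.15.0.4. Alignment, duplicate removal, placement of multiply mapped reads and any shift of read ends are steps not given in the sources used here. Peaks were listed for each library by HOMER findPeaks, per the file headers, with fragment length 300, false discovery rate 0.001 and 4-fold over a local region of 10000 bp. The deposited findPeaks score of those lists was not used. The merged table deposited by the authors gives the signal of 74090 peaks in tags per 10000000 total tags, with 0 value columns left unused. All values (100%) came out as whole read ends within the rounding of the deposited decimals. Intervals and floors cover counting error only.

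The signal was TMM-scaled. Features with at least 10 tags in at least 2 libraries were kept and taken to log2(value + 1), which understates changes of low features. limma 3.58.1 (R 4.3.3, trend) fitted all 8 libraries, because 2 libraries a side leave few degrees of freedom, with Benjamini-Hochberg adjustment over all features. edgeR 4.0.16 and DESeq2 1.42.0 on the recovered read ends were alternatives, and edgeR called 8208 peaks higher and 8737 lower of 65091 and 1380 genes higher and 1430 lower of 15319. The floor is 3 read ends over both libraries of a group.

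The members and gene lists were chosen with earlier results of these data known. Genes were named by a rule: those of the sort, 10 regulators and markers, up to 4 called genes with the largest change per list with at least 2 called, and the 12 largest rises and 12 largest falls among called genes without overlap and with a mean log2 of at least 3, without predicted genes, microRNAs and small nucleolar RNAs. The 6 largest peaks in each direction were named likewise. Some genes are not reported here. Other genes, peaks and loci were chosen after their values were seen. Sequences are RefSeq promoter windows, and sequences of the merged peaks were not analysed here.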

Additional observations from a re-analysis of the deposited data

How the results depend on the processing

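With the authors' scaling to total tags 26352 peaks and 10418 genes were called higher in mTEC-I and 3317 peaks and 289 genes lower, against 6211, 1311, 7298 and 1237 with TMM. It turned Ly6d (0.69), H2-Aa (0.74), H2-Ab1 (0.60), Epcam (0.96), L1cam (0.27), Krt10 (0.77), Cd80 (0.39), Grhl3 (0.78), Alox12b (0.11), Mafk (0.34), Sirt1 (0.53), Rfx5 (0.53), Rel (0.32), Nfkbia (0.69), Orm1 (0.0024), Tbp (0.28), Ppia (0.44) and Ywhaz (0.54) positive (log2 differences). Epcam was also positive with cyclic loess (0.0043, -0.042 with TMM) and without mTEC-III replicate 2 (0.088), L1cam with peaks at any distance (0.65), and Grhl3 without mTEC-III replicate 1 (0.071) and with peaks within 1 kb (0.36). Trp63 was negative with libraries thinned to equal depth (-0.031), as was Krt14 without mTEC-I replicate 2 (-0.012), without mTEC-III replicate 2 (-0.052) and with peaks at any distance (-0.13). Thinning to 866016 read ends per library left 2433 peaks and 657 genes called higher and 4311 peaks and 782 genes lower. A filter of 20 tags called 3662 peaks higher and 4692 lower, by construction over fewer peaks (34070), and the fit of the 4 libraries alone 5898 higher and 3976 lower. Peaks within 1 kb gave 683 genes higher and 603 lower, and peaks at any distance 2508 and 2112. Leaving out 1 library, the counts ranged from 364 to 6557 peaks higher and 2694 to 6453 lower, and from 286 to 1664 genes higher and 489 to 1352 lower. With the same features tested, an alternative added after seeing the data, they ranged from 894 to 6462 and 2689 to 6612 peaks, and from 303 to 1660 and 501 to 1353 genes. Singly, these were 965 and 894 peaks higher and 2779 and 2689 lower, and 342 and 303 genes higher and 593 and 501 lower, without mTEC-I replicate 1 or 2, and 4108 peaks higher without mTEC-III replicate 1. Over these fits Epcam ranged from -0.17 to 0.088, Krt14 from -0.052 to 0.26 and Grhl3 from -0.51 to 0.071. A library left alone in its group is assumed to vary like the other groups. Counts stayed within 1.5 times the main count for both directions and levels under TMM factors from promoter peaks, cyclic loess, pseudocounts of 0.5 and 5, no filter, edgeR and DESeq2. With the replicate block 6326 peaks and 1268 genes were called higher and 7258 and 1194 lower, and 119 of 123 named calls held. The replicate numbers do not pair the samples: deviations of same-numbered libraries correlated at -0.00090 over peaks and -0.013 over genes between the 2 groups, and from -0.039 to 0.057 over all pairs of the 4 populations. Of 111 named called genes, 43 kept the call without each of the 4 libraries. The cause was not tested. Depth limits mTEC-III most, where 1 read end is worth 1.67 and 1.02 normalized tags. TMM assumes that most peaks do not differ, which these data cannot check.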
